A study of Rattus norvegicus with 24 samples.

Results

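The effect of G2, an oat beta-glucan of low molecular weight, on gene expression in rat blood was examined with the rats pooled over their LPS status. The 8 arrays titled beta-glukan 2 were compared with the 8 arrays titled Control Diet, which is 16 of the 24 arrays of the series. The other 8 arrays came from rats fed G1, an oat beta-glucan of high molecular weight. All animals were male Sprague Dawley rats 8 weeks old, kept on a semi-synthetic diet for 6 weeks, after which blood was taken. Each array held the blood RNA of a single rat. C-G0 rats received the diet without beta-glucan and repeated intravenous injections of saline. LPS-G0 rats received the same diet and repeated intravenous injections of E. coli lipopolysaccharide (LPS) at 10 mg/kg, given to induce enteritis. C-G2 and LPS-G2 rats ate the diet enriched with G2 and received saline or LPS, respectively. Each of these 4 groups had 4 arrays, which the labels call biological replicates.

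Beta-glucans are glucose polymers of cereal and fungal cell walls. On myeloid cells they are recognised by Dectin-1 (Clec7a) and by complement receptor 3, which signal through the kinase Syk and the adaptor Card9. LPS, from the outer membrane of Gram-negative bacteria, is recognised by Tlr4 together with Cd14 and Ly96 and leads to NF-kB activation. Whole blood RNA comes from reticulocytes, platelets, neutrophils, monocytes and lymphocytes, so in these bulk samples fewer cells of a type and less RNA per cell cannot be told apart.

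On each array the rat's RNA and a reference pooled from the experimental groups were hybridised in different dyes. The values given here are log2 ratios of rat over reference, so that a difference of 1 is a 2-fold difference. They were computed with the rat RNA in Cy3, as the labels state. The study's methods state the reverse dye order, under which every sign given here would turn. In the processed signals the median SD between arrays of a group was 0.349 in Cy3 and 0.213 in Cy5 (log2, 7231 probes), so the Cy3 signal varied more between rats than the Cy5 signal. The LPS status follows the titles. For LPS-G0 replicates 3 and 4 another label calls the animals control.

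Per array, 7786 to 15385 of the 30367 probes had a Cy3 signal well above background. The group medians ran from 11099.5 to 11450 probes. The markers of blood cell types were present, and probes of the haemoglobin gene Hbb, the T cell receptor chain Cd3e, the B cell receptor chain Cd79b and the neutrophil protein S100a8 were above background on all 16 arrays. On slides 1, 2 and 3 each control-diet group had 2, 1 and 1 arrays and each G2 group 1, 1 and 2, so the diets were not balanced over the slides. C-G0 replicate 1 stood apart from the other arrays, and values that moved by more than 1.5-fold without it are given both ways for the genes and lists described in detail. In a model that weights arrays by their agreement with their group its weight was 0.184. The lowest weight of any other array was 0.436, for C-G2 replicate 2. The median SD per probe was 0.36 in C-G0, 0.30 in C-G2, 0.22 in LPS-G0 and 0.21 in LPS-G2 (n = 4 arrays each).

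Which genes differed between the diets was asked of 9880 probes. Each had a Cy3 signal well above background in every array of 1 or more of the 4 groups. No probe passed an adjusted p of 0.05 for the pooled G2 effect in limma (0%). The smallest adjusted p was 0.216, for S100a11. At an unadjusted limma p under 0.05 there were 1156 probes (11.7% of the tested probes). Of these, 540 were higher (5.47%) and 616 lower (6.23%) with G2. The median pooled difference over all probes was -0.01, and 4733 probes (47.9%) had a higher mean with G2. An unadjusted p under 0.05 together with a 2-fold difference was reached by 16 probes (0.162%), 8 in each direction (0.081%).

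The same question was asked within each LPS status. Without LPS (C-G2 against C-G0) limma gave 0 calls after adjustment, with a smallest adjusted p of 0.0670 and 1192 probes (12.1%) at an unadjusted p under 0.05. With LPS (LPS-G2 against LPS-G0) limma also gave 0 calls after adjustment, with a smallest adjusted p of 0.734 and 547 probes (5.54%) at an unadjusted p under 0.05. The model uses a single spread per probe for all 4 groups, while the median SD was larger without LPS than with LPS. These counts are therefore no measure of which LPS status had the larger diet effect. By non-overlap of the arrays the order was the other way, with 2.69% of probes without LPS and 11% with LPS. The interaction, which is the diet effect with LPS minus that without LPS, likewise gave 0 adjusted calls in limma (smallest adjusted p 0.838) and 484 probes (4.9%) at an unadjusted p under 0.05, of which 442 (4.47% of all) had opposite signs. A difference between the diet effects in the 2 conditions was therefore not detected for any single probe at this number of arrays. The median standard error of the interaction was 0.30 on the log2 scale, against 0.15 for the pooled effect.

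On the higher side of the pooled comparison S100a11, a calcium-binding S100 protein, had the smallest p. Its log2 ratios were -0.66, -0.27, -0.52 and -0.30 in C-G0 and 0.55, 0.82, 0.49 and 0.88 in C-G2. In the LPS rats they were -0.20, 0.04, -0.41 and 0.23 in LPS-G0 and 0.47, 0.08, 0.39 and -0.06 in LPS-G2. All C-G2 arrays lay above all C-G0 arrays, while the LPS-G2 and LPS-G0 arrays overlapped. The pooled difference was 0.71 ± 0.12 (SE, limma adjusted p = 0.216, exact permutation p = 0.00245). It was 1.12 without LPS and 0.30 with LPS (limma interaction, adjusted p = 0.838). A second S100a11 probe differed by 0.60.

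Near-copies of S100a11 are predicted elsewhere in the rat genome, and probes designed for them followed it in the order of p. RGD1563581 differed by 0.80 ± 0.15 and LOC100362296 by 0.61 ± 0.13 (SE). The longest run of bases shared between any pair of these 4 probes was 10, so the probes read different stretches. Whether each transcript is made, or whether the S100a11 transcript was measured several times, was not tested. The 4 probes are therefore not counted as independent genes. The probe of S100a11 lies at chr2:186620424-186620483 in the array's annotation, which uses the rn4 assembly.

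Ltbr, the lymphotoxin beta receptor of the alternative NF-kB pathway, was higher on every G2 array than on any control-diet array. Its log2 ratios were -0.92, 0.03, -0.17 and -0.12 in C-G0 and 0.37, 0.56, 0.29 and 0.07 in C-G2, then -0.53, 0.03, -0.26 and -0.17 in LPS-G0 and 0.26, 0.33, 0.48 and 0.21 in LPS-G2. The G2 arrays started at 0.07 and the control-diet arrays ended at 0.03. The pooled difference was 0.59 ± 0.14 (SE, limma adjusted p = 0.282). An exact two-sided permutation of the diets within LPS status gave p = 0.000408, the smallest that the 4900 arrangements can give. That value was not adjusted for the number of probes, and Ltbr had been chosen for its small p in the same pooled comparison. The same holds for the permutation p of S100a11, Chac2 and Slc27a2, so none of these values is separate evidence of a diet effect.

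Across all 9880 probes the 8 G2 arrays did not overlap the 8 control-diet arrays for 8 probes (0.081%). Besides Ltbr they included Tlr13, Mapkapk3, Brk1 and Mgmt on the higher side and the transcripts ENSRNOT00000075679 and ENSRNOT00000029418 on the lower side. Tlr13, Mapkapk3, Brk1 and Mgmt are outside the rule for named genes and were picked after their values were seen.

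Tlr13, an endosomal sensor of bacterial ribosomal RNA, differed by 0.63 ± 0.16 (SE), with 0.76 without LPS (0.47 without C-G0 replicate 1) and 0.50 with LPS. Mapkapk3, a kinase downstream of p38, differed by 0.46 ± 0.13 (SE). Brk1, a small subunit of the actin-regulating WAVE complex, differed by 0.40 ± 0.11 (SE), and Mgmt, which repairs alkylated guanine, by 0.46 ± 0.17 (SE), or 0.29 without C-G0 replicate 1. None of these 4 passed the adjusted p, and their limma adjusted p ran from 0.289 for Tlr13 to 0.383 for Mgmt.

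Fcer1g, the signalling chain shared by Fc receptors and several C-type lectin receptors, differed by 0.45 ± 0.11 (SE), and its second probe by 0.47. On single arrays it stood at -0.63, -0.09, -0.24 and -0.13 in C-G0, 0.46, 0.29, 0.31 and 0.26 in C-G2, -0.17, -0.19, -0.37 and 0.03 in LPS-G0 and 0.26, 0.13, -0.11 and 0.19 in LPS-G2. Myo1f, a class I myosin of leukocytes, differed by 0.57 ± 0.13 (SE), with log2 ratios of -0.90, -0.25, -0.18 and -0.26 in C-G0, 0.41, 0.35, 0.24 and 0.39 in C-G2, -0.30, -0.04, -0.26 and 0.14 in LPS-G0 and 0.58, 0.34, 0.02 and 0.18 in LPS-G2. For both genes all C-G2 arrays were above all C-G0 arrays, and the LPS groups overlapped, with 1 LPS-G2 array below the highest LPS-G0 array for Fcer1g and 1 for Myo1f.

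Tifab, a regulator of Traf6 signalling, differed by 0.86 ± 0.19 (SE). The log2 ratios of Tifab were -0.76, -0.22, -0.63 and -0.07 in C-G0, 0.85, 0.73, 0.55 and 0.34 in C-G2, -0.16, 0.37, -1.22 and -0.20 in LPS-G0 and 0.38, 0.81, 0.09 and 0.23 in LPS-G2. The diets were apart without LPS and overlapped with LPS, where LPS-G0 replicate 3 was the lowest array. In each control-diet group 2 arrays had Tifab well above background, and in each G2 group all 4 had. Tifab therefore passed the filter only through the G2 groups, and the size of its difference is poorly measured. Slc16a3, the lactate exporter MCT4, differed by 0.55 ± 0.13 (SE). The largest pooled differences among the 12 leading higher probes were those of LOC681196, a predicted paired immunoglobulin-like type 2 receptor beta, and of Hp. LOC681196 differed by 1.16 ± 0.28 (SE), but it was well above background on 1 of the 4 C-G0 and 2 of the 4 LPS-G0 arrays, so its size and its rank are poorly measured. Hp encodes haptoglobin, the haemoglobin-binding plasma protein, and differed by 1.13 ± 0.26 (SE). For Hp the log2 ratios were -0.65, -0.90, -0.80 and -2.27 in C-G0, 0.95, 0.09, 0.26 and 0.79 in C-G2, -0.52, 0.51, -0.78 and 0.03 in LPS-G0 and 0.18, 0.58, 1.07 and -0.26 in LPS-G2. C-G0 replicate 4 was the lowest of all, and the LPS groups overlapped. The probe A_64_P108854, to which the array assigns no gene name, differed by 0.48 ± 0.11 (SE).

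The slides were checked for the leading probes. All 24 leading probes had the same sign of the pooled difference on each of the 3 slides, although the slides hold few arrays and the probes were chosen by this difference. S100a11 differed by 0.78, 0.92 and 0.46 on slides 1, 2 and 3, and Ltbr by 0.66, 0.66 and 0.41. With slide as a block the pooled differences of S100a11 and Ltbr were 0.70 and 0.57. Without C-G0 replicate 1 they were 0.68 and 0.48.

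**Figure D1:**
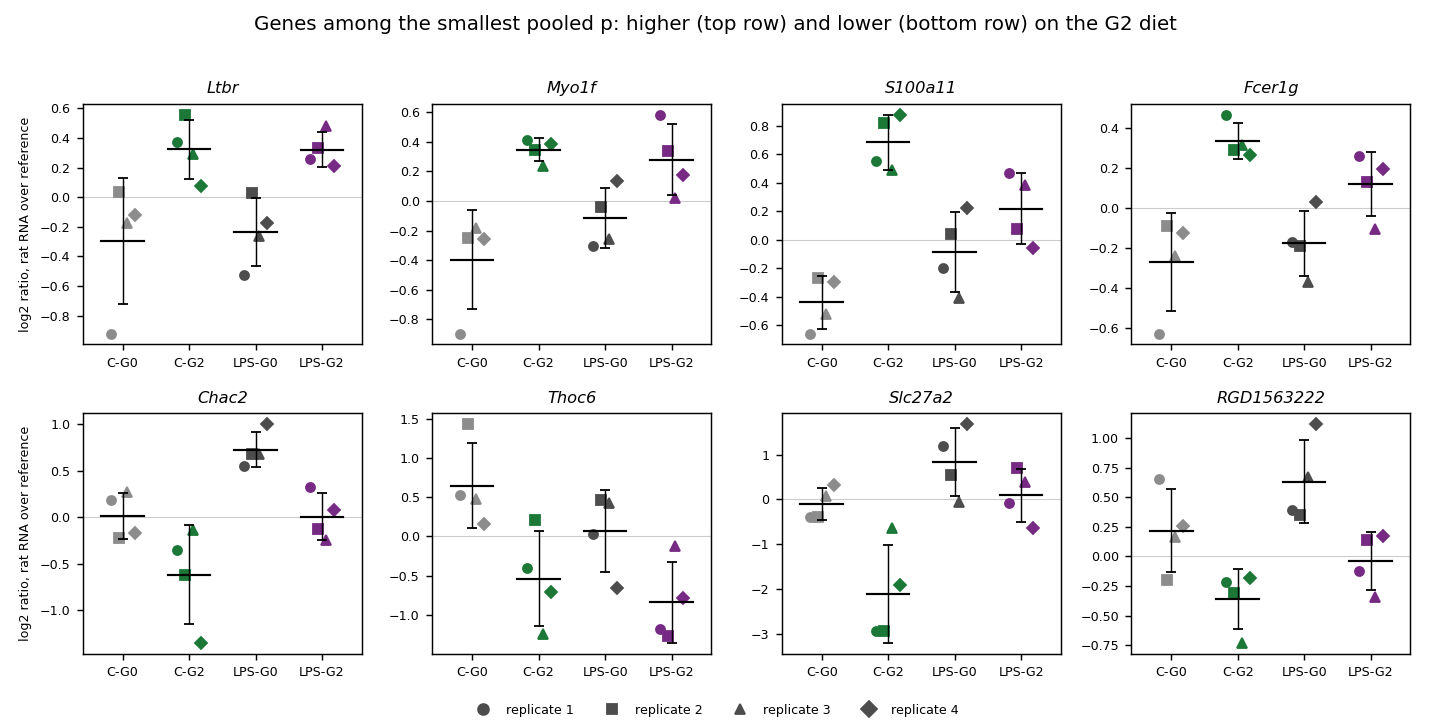
Log2 ratio of rat over reference RNA on each of the 16 arrays (y axis) by group (x axis) for the 4 genes Ltbr, Myo1f, S100a11 and Fcer1g with a higher mean in G2 rats (top) and the 4 genes Chac2, Thoc6, Slc27a2 and RGD1563222 with a lower mean (bottom); points are arrays, shaped by replicate number, lines are group means and bars SD (n = 4). The G2 arrays of Ltbr lie above the control-diet arrays in both LPS statuses, and Slc27a2 is lowest in C-G2.

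PU.1, a transcription factor of blood cells, binds sites with a GGAA core. The 250 bases before each start were searched for the 6 letters GAGGAA on both strands, a motif chosen after the leading genes were seen. They are shown for Ltbr and Tifab, with the motif in capitals, from RefSeq on GRCr8 and in the direction of the gene.
Ltbr (chr4:159801517-159801766, minus strand): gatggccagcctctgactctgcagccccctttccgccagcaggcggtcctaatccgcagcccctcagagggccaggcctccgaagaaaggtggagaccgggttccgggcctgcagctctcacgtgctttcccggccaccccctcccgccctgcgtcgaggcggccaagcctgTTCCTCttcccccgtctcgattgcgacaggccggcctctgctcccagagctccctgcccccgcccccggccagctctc
Tifab (chr17:8438483-8438732, plus strand): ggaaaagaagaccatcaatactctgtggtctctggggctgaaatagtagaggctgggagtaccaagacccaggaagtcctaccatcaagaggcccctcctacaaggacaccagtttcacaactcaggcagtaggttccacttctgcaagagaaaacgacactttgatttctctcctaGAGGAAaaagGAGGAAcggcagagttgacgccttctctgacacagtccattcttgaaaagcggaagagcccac
Ltbr held the reverse complement TTCCTC beginning 78 bases before its start. Tifab held a copy of GAGGAA beginning 73 bases before its start and another just downstream of it. Of the 15 leading or alike probes on the higher side 8 had a promoter in the table, and 3 of these (37.5%), Ltbr, Tifab and Slc16a3, held the motif. Of the 13 on the lower side 5 had a promoter, and 0 held it. Among all 27457 promoters 6379 (23.2%) held it, so the share among these few genes is a description of their letters only.

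On the lower side Chac2, an enzyme that degrades glutathione, had log2 ratios of 0.19, -0.22, 0.27 and -0.17 in C-G0 and -0.36, -0.62, -0.14 and -1.35 in C-G2. With LPS they were 0.55, 0.68, 0.68 and 1.00 in LPS-G0 and 0.32, -0.13, -0.25 and 0.08 in LPS-G2. The LPS groups did not overlap, whereas C-G2 replicate 3 lay within the range of C-G0. The pooled difference was -0.68 ± 0.16 (SE, limma adjusted p = 0.282, exact permutation p = 0.00122). Its other probe was at -0.65.

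Slc27a2, which activates and takes up long-chain fatty acids, had the most negative pooled difference of the 12 leading lower probes. The log2 ratios were -0.38, -0.39, 0.07 and 0.32 in C-G0 and -2.92, -2.94, -0.62 and -1.90 in C-G2. With LPS they were 1.19, 0.55, -0.06 and 1.67 in LPS-G0 and -0.07, 0.70, 0.39 and -0.64 in LPS-G2. The groups did not overlap without LPS and did with LPS. The pooled difference was -1.37 ± 0.32 (SE, limma adjusted p = 0.282, exact permutation p = 0.00531). In C-G2 only 1 of the 4 arrays had a signal well above background for it, so the size of the difference there is poorly measured.

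Thoc6, a subunit of the THO complex of mRNA export, differed by -1.05 ± 0.24 (SE), with 1 of the 4 LPS-G2 arrays well above background. Fam208a, a subunit of the HUSH gene-silencing complex, differed by -1.15 ± 0.26 (SE) on its leading probe but by -0.23 (-0.36 without C-G0 replicate 1) on its second probe. Only 1 array in each G2 group had the leading probe well above background, so its size is poorly measured, while the second probe passed on all 16 arrays. Other lower probes were RGD1563222, listed in RefSeq as C3h11orf91, at -0.62, the olfactory receptor gene Olr1593 at -0.81, TC600364, well above background on 1 of the 4 LPS-G2 arrays, at -1.10, A_64_P094816 at -0.81 and A_64_P087281 at -0.74.

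The transcript ENSRNOT00000075679 was lower on every G2 array, with a pooled difference of -0.81 ± 0.17 (SE). On single arrays it was at 1.12, 0.71, 0.40 and 0.18 in C-G0 and -0.13, 0.09, -0.08 and -0.47 in C-G2, and 0.68, 1.07, 0.27 and 0.53 in LPS-G0 and -0.08, 0.15, -0.11 and -0.92 in LPS-G2. ENSRNOT00000029418 was likewise lower on every G2 array, with a pooled difference of -0.61 ± 0.14 (SE). The array's annotation gives no gene name for either.

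Whether the diet difference ran alike with and without LPS was asked by setting both diet effects side by side. They share no array, but all probes share the reference and the slides. Over the 9880 probes 5730 (58%) had the same sign in both, and Pearson's r across probes was 0.20. Both effects had an unadjusted limma p under 0.05 with the same sign for 64 probes (0.648%), of which 40 were higher (0.405%) and 24 lower (0.243%) with G2. They had opposite signs for 7 probes (0.0709%). These counts depended on single arrays. Without C-G0 replicate 1, r was -0.08, 43.6% of probes had the same sign, 48 probes counted as alike and 60 as opposite. Without C-G2 replicate 2, r was 0.02 and 25 probes counted as opposite. With slide as a block r was 0.10 and 53.1% of probes had the same sign, and with array weights r was 0.00 and 46.6% did.

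**Figure D2:**
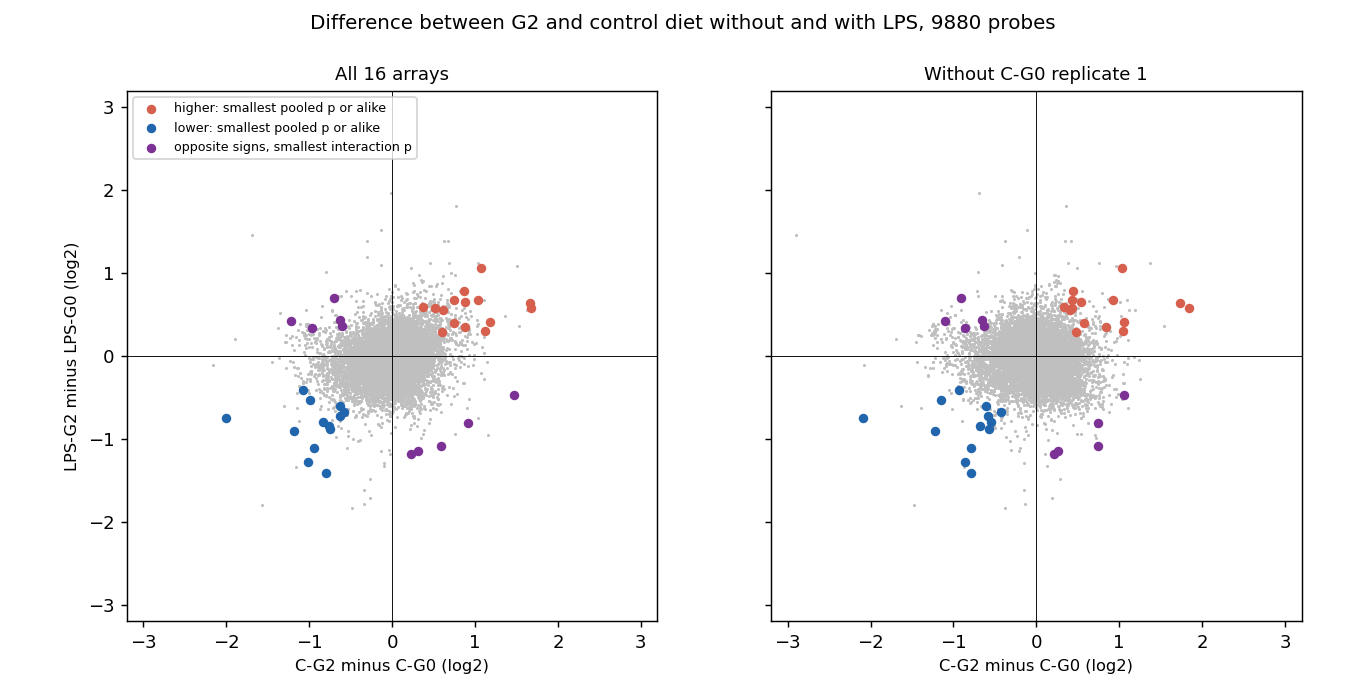
Diet effect with LPS (LPS-G2 minus LPS-G0, y axis) against the diet effect without LPS (C-G2 minus C-G0, x axis) as log2 differences, 1 point for each of 9880 probes, with all 16 arrays (left) and without C-G0 replicate 1 (right). Pearson's r across probes is 0.20 on the left and -0.08 on the right.

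Among the alike genes, Vcan, a large proteoglycan made by monocytes, differed by 1.07 without LPS and 1.07 with LPS. The log2 ratios of Vcan were -0.53, -0.08, -1.49 and 0.38 in C-G0, 1.11, 0.48, 0.23 and 0.73 in C-G2, -0.64, -1.45, -1.47 and 0.11 in LPS-G0 and 0.35, 0.80, 0.57 and -0.90 in LPS-G2, and the diets overlapped in both LPS statuses. Vcan was well above background on 2 of the 4 C-G0 and 1 of the 4 LPS-G0 arrays, so the sizes of both differences are poorly measured. Fcnb, a myeloid lectin of the complement system, differed by 0.87 and 0.78, with C-G0 replicate 1 at -1.87 and the next C-G0 array at -0.23. The difference of Fcnb in the rats without LPS was 0.45 when that array was left out. Nfkbie, which holds NF-kB in the cytoplasm, differed by 0.88 (0.54 without C-G0 replicate 1) and 0.65, and 2 of its 4 C-G0 arrays were well above background. On the lower side Xrcc4, a factor of DNA end joining, differed by -0.94 and -1.11, and Thoc6 by -1.19 and -0.91. Xrcc4 had 2 of the 4 arrays of each G2 group well above background. On slides 1, 2 and 3 Xrcc4 differed by 0.13, -0.08 and -1.63 without LPS and by -1.35, -1.93 and -0.28 with LPS. Its likeness over all arrays was thus not seen within the slides. On slide 3 Vcan differed by 0.10 without and -0.28 with LPS, and Thoc6 by -1.14 and 0.20. Fcnb and Nfkbie were higher on every slide in both LPS statuses.

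The arrays of the diets did not overlap within either LPS status and in the same direction for 10 probes (0.101%), 7 higher (0.0709%) and 3 lower (0.0304%). They included the 8 probes counted above and, picked after their values were seen, Rras on the higher and Iba57 on the lower side. Within the rats without LPS alone the figure was 266 probes (2.69%), and within the LPS rats alone it was 1082 (11%). Another 2 probes, A_64_P024895 and RGD1564634, were separated in opposite directions (0.0202%); they were picked after their values were seen.

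Gzmc, a granzyme of cytotoxic granules, had opposite differences, with log2 ratios of -1.30, -0.07, -1.33 and -0.37 in C-G0 and 0.35, 0.19, -0.49 and 0.56 in C-G2. With LPS they were 0.63, 0.61, 0.10 and 0.81 in LPS-G0 and 0.02, 0.09, -0.36 and -0.80 in LPS-G2. The C groups overlapped through C-G2 replicate 3, and the LPS groups did not overlap. On slides 1, 2 and 3 the interaction was -1.64, -1.53 and -1.80. Over all slides the diet effect was 0.92 without and -0.80 with LPS (limma interaction, adjusted p = 0.838). Gzmc was well above background on 2 of the 4 C-G0 arrays.

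Gzmk, a granzyme of memory T cells and NK cells, had log2 ratios of -1.31, -0.10, -0.32 and -0.39 in C-G0 and 0.06, -0.01, -0.27 and 0.32 in C-G2, and 0.85, 0.69, 0.20 and 0.54 in LPS-G0 and 0.14, 0.11, 0.27 and -0.33 in LPS-G2. The diets overlapped in both LPS statuses. Its diet effect was 0.55 without and -0.52 with LPS (limma interaction, adjusted p = 0.838), and 0.29 without LPS when C-G0 replicate 1 was left out. Both granzymes were among the 7 probes with opposite signs and an unadjusted p under 0.05 in both effects. The others were Ptp4a2, Nfx1, Prss39, A_64_P022692 and ENSRNOT00000051268, of which Nfx1 and Prss39 are named only to complete this count.

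Fcgr3a, the low-affinity IgG receptor CD16 of NK cells and monocytes, had log2 ratios of -2.40, -0.47, -0.90 and -0.82 in C-G0 and 0.87, 0.39, -0.07 and 0.11 in C-G2. With LPS they were -0.19, -0.08, -0.44 and 0.49 in LPS-G0 and -0.53, -0.73, -0.32 and -0.50 in LPS-G2. All C-G2 arrays were above all C-G0 arrays, and the LPS groups overlapped. The diet effect was 1.47 without and -0.46 with LPS (limma interaction, adjusted p = 0.838). Arpc2, a subunit of the actin-branching Arp2/3 complex, differed by 0.22 without and -1.18 with LPS.

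In the other orientation Rmnd5a, a subunit of the CTLH ubiquitin ligase, differed by -1.23 without and 0.43 with LPS. The log2 ratios of Rmnd5a were 1.12, 1.15, 0.79 and -0.06 in C-G0, -0.55, 0.02, -0.68 and -0.70 in C-G2, -0.37, -0.06, 0.05 and -0.86 in LPS-G0 and 0.05, -0.11, 0.58 and -0.04 in LPS-G2. The groups overlapped without LPS through C-G0 replicate 4, and they overlapped with LPS. Ptp4a2, a protein tyrosine phosphatase, differed by -0.63 and 0.43.

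**Figure D3:**
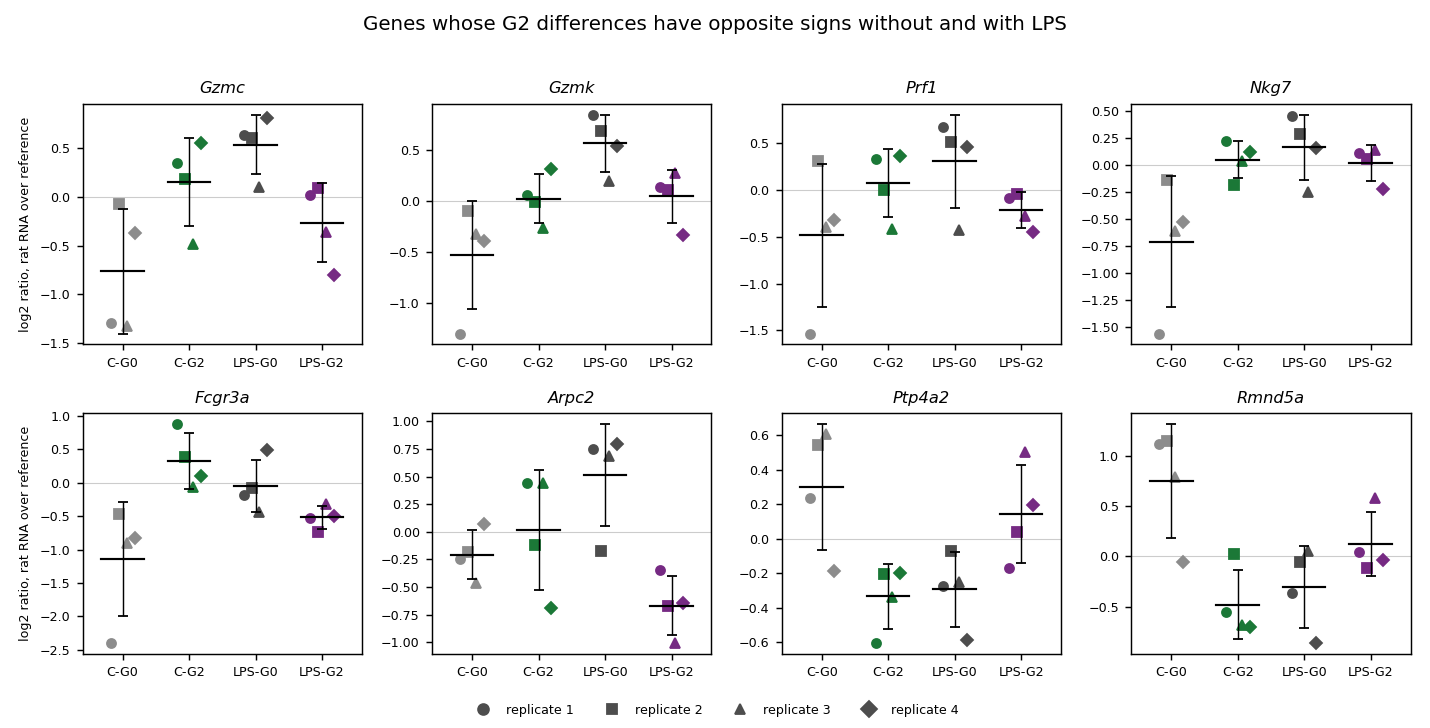
Log2 ratio of rat over reference RNA on each of the 16 arrays (y axis) by group (x axis) for Gzmc, Gzmk, Prf1, Nkg7, Fcgr3a, Arpc2, Ptp4a2 and Rmnd5a; points are arrays, shaped by replicate number, lines are group means and bars SD (n = 4). Gzmc is higher in C-G2 than in C-G0 on average and lower in LPS-G2 than in LPS-G0, and C-G0 replicate 1 is among the lowest arrays for Fcgr3a, Gzmc and Gzmk.

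Lists of genes were then described by their counts and medians, without a test of the list. Their counts are to be read against the 5.47% of all probes that were higher and the 6.23% that were lower at an unadjusted p under 0.05 in the pooled effect. Of 12 tested genes of cytotoxic T and NK cells, 7 had an unadjusted limma interaction p under 0.05 (4.9% of all probes had). Only 1 had the same sign in both diet effects (58% of all probes had). The list median was 0.56 without LPS and -0.40 with LPS, against 0.02 and -0.02 over all probes. Gzmb differed by 1.04 and -0.74 and Gzma by 0.75 and -0.49. Prf1, the pore-forming protein of these cells, differed by 0.56 and -0.52, and Nkg7, a granule membrane protein, by 0.76 and -0.14. Gzmb was not well above background on C-G0 replicates 1 and 3 (-2.58 and -1.35), so its difference without LPS is poorly measured. In the same list Tbx21 had log2 ratios of 0.59, 0.98, 0.44 and -0.35 in C-G0 and 0.29, -0.42, -0.16 and -0.61 in C-G2. Klrk1 stood at 0.35, 0.15, 0.10 and 0.12 in C-G0 and 0.28, -0.21, 0.62 and 0.13 in C-G2. Gzmk, Gzma, Gzmb, Prf1, Nkg7, Tbx21 and Klrk1 are outside the rule for named genes. The differences of Gzmb, Gzma, Prf1 and Nkg7 in the rats without LPS were 0.54, 0.41, 0.21 and 0.47 when C-G0 replicate 1 was left out. The mean log2 ratio of the list per array was -1.15, 0.04, -0.34 and -0.33 in C-G0, 0.21, -0.09, -0.21 and 0.21 in C-G2, 0.51, 0.42, 0.00 and 0.42 in LPS-G0 and 0.02, 0.05, 0.00 and -0.26 in LPS-G2. Both pairs of groups overlapped. At an unadjusted limma p under 0.05, 6 genes were higher and 1 lower without LPS (12.1% of all probes in either direction). With LPS 0 were higher and 2 lower (5.54% of all probes in either direction). Without C-G0 replicate 1, which had the lowest mean, the median without LPS was 0.28, with 2 genes higher and 0 lower. Again 1 gene had the same sign, against 43.6% of all probes without that array. With slide as a block the medians were 0.57 and -0.40.

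The MHC class II and antigen presentation list had a median of 0.37 without LPS and 0.43 with LPS. Of its 12 tested genes 11 had a higher mean (47.9% of all probes had). An unadjusted limma p under 0.05 was reached by 7, all 7 higher (5.47% of all probes were). The pooled median was 0.45 against -0.01 over all probes. The 7 included RT1-DMb and RT1-DMa, the chains of the peptide loader, at 0.50 and 0.50, the costimulatory receptor Cd40 at 0.66, the protease Ctsh at 0.39, the thiol reductase Ifi30 at 0.46 (0.29 without C-G0 replicate 1) and the class II chain RT1-Db1 at 0.49. Cd74, the invariant chain, had log2 ratios of -1.40, 0.39, 0.25 and 0.32 in C-G0, -0.49, 0.27, 0.54 and 0.26 in C-G2, -0.48, -0.84, -0.42 and -0.52 in LPS-G0 and 0.14, -0.18, 0.21 and 0.64 in LPS-G2. Its diet effect was 0.26 without LPS, where the arrays overlapped, and 0.77 with LPS, where they did not. The sign without LPS rested on C-G0 replicate 1, and without that array the Cd74 effect there was -0.17.

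The mean log2 ratio of the class II list per array was -0.34, -0.47, -0.24 and -0.31 in LPS-G0 and 0.17, -0.06, -0.05 and 0.42 in LPS-G2, which did not overlap. In C-G0 it was -0.96, -0.01, -0.05 and 0.00 and in C-G2 -0.25, 0.10, 0.16 and 0.11, which did. Without C-G0 replicate 1 the median without LPS was 0.07 in place of 0.37, while the pooled median was 0.29 with 5 genes higher at an unadjusted p under 0.05. With slide as a block the pooled median was 0.37. Ciita, the transactivator of class II genes, differed by -0.43 without and 0.36 with LPS (limma interaction, adjusted p = 0.838). The B cell list, whose cells also carry class II molecules, had a median of -0.16 without and 0.49 with LPS over 9 genes, none at an unadjusted p under 0.05 in the pooled effect. The B cell median without LPS was -0.32 when C-G0 replicate 1 was left out. The part of B cells or monocytes in the class II values was not tested.

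The neutrophil list had a median of 0.36 over 7 tested genes, with 2 higher (5.47% of all probes were) and 0 lower at an unadjusted p under 0.05. It was 0.01 without LPS (0.11 without C-G0 replicate 1) and 0.65 with LPS. S100a8, a calprotectin subunit, had log2 ratios of -0.47, -0.41, 0.15 and 0.12 in C-G0, -0.22, 1.02, -0.54 and 0.52 in C-G2, -1.03, -0.48, -0.39 and -0.84 in LPS-G0 and 0.60, -0.37, 0.88 and -0.17 in LPS-G2. The diets overlapped without LPS and not with LPS. It differed by 0.63 ± 0.23 (SE), and Csf3r, the receptor of granulocyte colony-stimulating factor, by 0.45 ± 0.17 (SE).

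The monocyte list had a median of 0.33 over 9 genes, with 3 higher (5.47% of all probes were) and 0 lower. Lyz2, lysozyme, differed by 0.71 and Cd68, a lysosomal protein of macrophages, by 0.52, and the third was Fcgr3a. Csf1r, a defining monocyte receptor, was at -0.13 (limma adjusted p = 0.646). Without C-G0 replicate 1 the monocyte median without LPS was 0.15 in place of 0.54, and the pooled median was 0.17 with 2 genes higher.

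Lists with lower medians were those of red cells, T cells and dividing cells. The erythroid list had a median of -0.23 over 21 genes, and of -0.15 without C-G0 replicate 1. Of these genes 17 had a lower mean, while 47.9% of all probes had a higher mean. At an unadjusted limma p under 0.05 only 1 was lower (6.23% of all probes were), and 0 without C-G0 replicate 1. The haemoglobin genes were near 0, with Hbb at 0.03 and Hba1 at -0.01. The T cell list had a median of -0.10 over 16 genes, with 3 lower at an unadjusted p under 0.05 (6.23% of all probes were), and of -0.17 without C-G0 replicate 1. These were the CD8 coreceptor chain Cd8b at -0.32, Cd3e at -0.40 and the interleukin 7 receptor Il7r at -0.43, whose other probe was at -0.19. The Il7r probes had opposite signs by LPS status, at -0.97 and -0.85 without LPS and at 0.11 and 0.47 with LPS. Cd3e differed by -0.73 without LPS and -0.08 with LPS. The cell division list had a median of -0.24 over 15 genes, with 2 lower (6.23% of all probes were), Ube2c, a ubiquitin-conjugating enzyme of mitosis, at -1.16 and Top2a, topoisomerase II alpha, at -0.67. The T cell list had 4 and the cell division list 1 gene lower with C-G0 replicate 1 left out. The platelet list was at -0.02 (0.04 without C-G0 replicate 1) with 0 of 12 genes at an unadjusted p under 0.05.

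**Figure D4:**
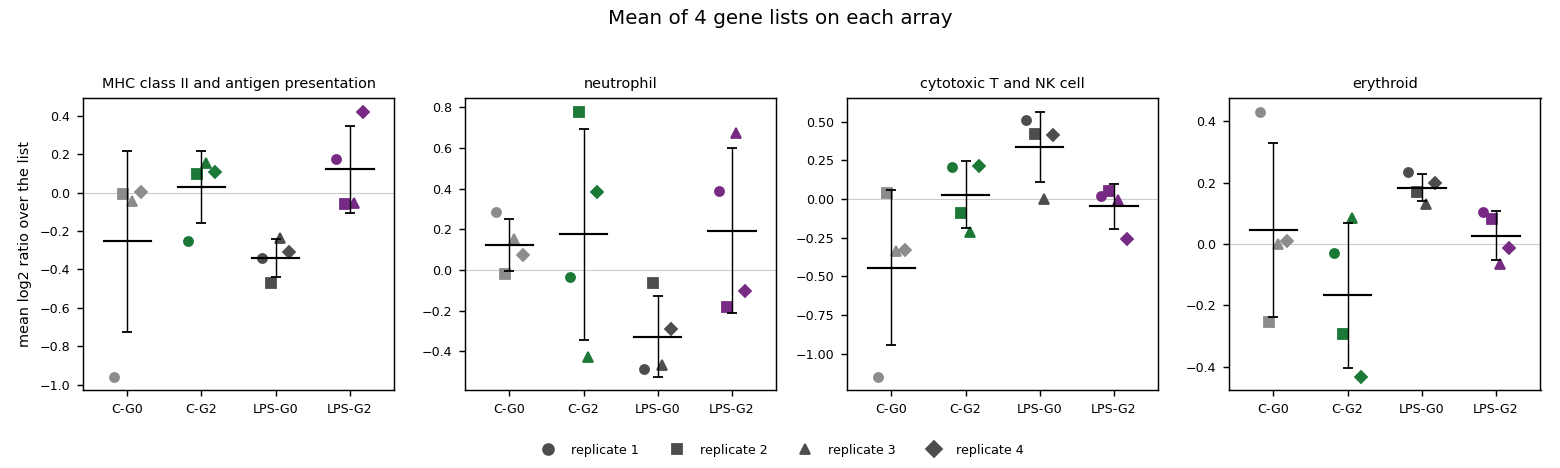
Mean log2 ratio per array (y axis) by group (x axis) of the tested genes of 4 lists, MHC class II and antigen presentation, neutrophil, cytotoxic T and NK cell, and erythroid; points are arrays, shaped by replicate number, lines are group means and bars SD (n = 4). C-G0 replicate 1 is the lowest array for the class II list (-0.96) and the cytotoxic list (-1.15), and the LPS-G2 arrays lie above the LPS-G0 arrays for the class II list.

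Receptors and signalling genes of the beta-glucan and LPS pathways were read next. In the list of beta-glucan receptors and the Syk-Card9 route the median was 0.18 over 15 genes, with 3 higher (5.47% of all probes were) and 0 lower at an unadjusted p under 0.05. The receptor Clec7a differed by 0.18 (limma adjusted p = 0.716) and Itgam, the alpha chain of complement receptor 3, by -0.20 (limma adjusted p = 0.587; -0.11 without C-G0 replicate 1). The 3 higher genes were the galactose-binding lectin Lgals3 at 0.56, the kinase Syk at 0.33, whose other probe was at -0.09, and the exchange factor Vav1 at 0.27. The adaptor Card9 was at 0.31 (limma adjusted p = 0.438). Without C-G0 replicate 1 this list had 1 gene higher and a median of 0.11.

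The list of LPS recognition and TLR4 signalling had a median of 0.19 over 9 genes, with 2 higher, both inhibitors of the pathway, Tollip at 0.29 and Irak3 at 0.39. The pooled TLR4 median was 0.06 without C-G0 replicate 1, and in the rats without LPS it was -0.04 in place of 0.08. The NF-kB list had a median of 0.11 over 11 genes, with 2 higher, the inhibitor Nfkbie at 0.76 and the deubiquitinase Cyld at 0.42. The cytokine list had a median of 0.29 over 11 genes, with 2 higher, the interleukin 1 receptor antagonist Il1rn at 0.47 and the chemokine Ccl5 at 0.29. The prostaglandin and leukotriene list was at 0.09 with 1 of 8 genes higher, Anxa1, an anti-inflammatory annexin, at 0.49. The share higher over all probes was 5.47%. With C-G0 replicate 1 left out, the cytokine list had 1 gene higher and the prostaglandin list 0. Interferon-stimulated genes were at 0.10 over 19 genes (0.01 without C-G0 replicate 1), with 0 at an unadjusted p under 0.05.

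Metabolic lists gave mostly small medians. Fatty acid uptake and oxidation had 6 genes higher and 1 lower of 19 tested (5.47% and 6.23% of all probes), with a median of 0.21. The higher ones included the thiolase Acaa1a at 0.43, the enoyl-CoA hydratase Echs1 at 0.51 and the transporter Slc27a1 at 0.46, and the lower one was Slc27a2. The cholesterol list had 3 higher (5.47% of all probes) and 0 lower of 11 with a median of 0.16, namely the sterol oxygenase Msmo1 at 0.34, the regulator Srebf2 at 0.31 and the synthase Hmgcs1 at 0.31. Oxidative phosphorylation was at 0.10 (0.05 without C-G0 replicate 1) with 3 higher of 59, a share near the 5.47% of all probes. They were the succinate dehydrogenase subunit Sdhb at 0.30, the ATP synthase subunit Atp5c1 at 0.51 and the complex I subunit Ndufs4 at 0.24. The antioxidant list was at 0.05 over 18 genes, with the peroxiredoxin Prdx5 higher at 0.47 and catalase, Cat, lower at -0.40. Leaving out C-G0 replicate 1 gave 1 gene higher in the cholesterol list and 2 in that of oxidative phosphorylation, and for the antioxidants 2 higher and 0 lower.

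Proteasome genes had a median of 0.19 over 36 genes (0.09 without C-G0 replicate 1), with 4 higher (5.47% of all probes), among them Psmb3, Psmb9 and Psmc3 at 0.33, 0.39 and 0.30, and 1 lower, the activator Psme4 at -0.51, whose other probe was at 0.04. Ribosomal protein genes were at 0.08 over 64 genes (-0.01 without C-G0 replicate 1), with 0 at an unadjusted p under 0.05. Autophagy genes were at 0.01 over 23 genes (-0.01 without C-G0 replicate 1), with 1 higher, RGD1359310, now Atg101, at 0.48. On slides 1, 2 and 3 Atg101 differed by 1.185, 1.316 and 0.322 without LPS and by -0.062, -0.124 and 0.037 with LPS. Of the 23 genes 6 had the same sign in both diet effects (58% of all probes). An unadjusted limma interaction p under 0.05 was reached by 3 (4.9% of all probes). The circadian list was at -0.06 over 6 genes, with Npas2 lower at -0.47. The glucocorticoid-responsive list was at 0.07 over 9 genes (0.00 without C-G0 replicate 1), with the decoy receptor Il1r2 at 0.56 and Ddit4, an inhibitor of mTORC1, at 0.45 on the higher side. On its lower side were the cell cycle inhibitor Cdkn1a at -0.38 and Tsc22d1 at -0.43, whose other probe was at 0.05. Immediate-early genes were at 0.19 over 14 genes (0.10 without C-G0 replicate 1), with 4 higher, including the phosphatase Dusp5 at 0.50 and the nuclear receptor Nr4a1 at 0.57, and 3 lower, including the AP-1 subunits Jund at -0.34 and Fosb at -0.54. With C-G0 replicate 1 left out these counts were 2 higher and 2 lower for immediate-early genes, and 1 higher and 0 lower for the glucocorticoid list. The autophagy and circadian lists then had 0 in either direction.

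**Figure D5:**
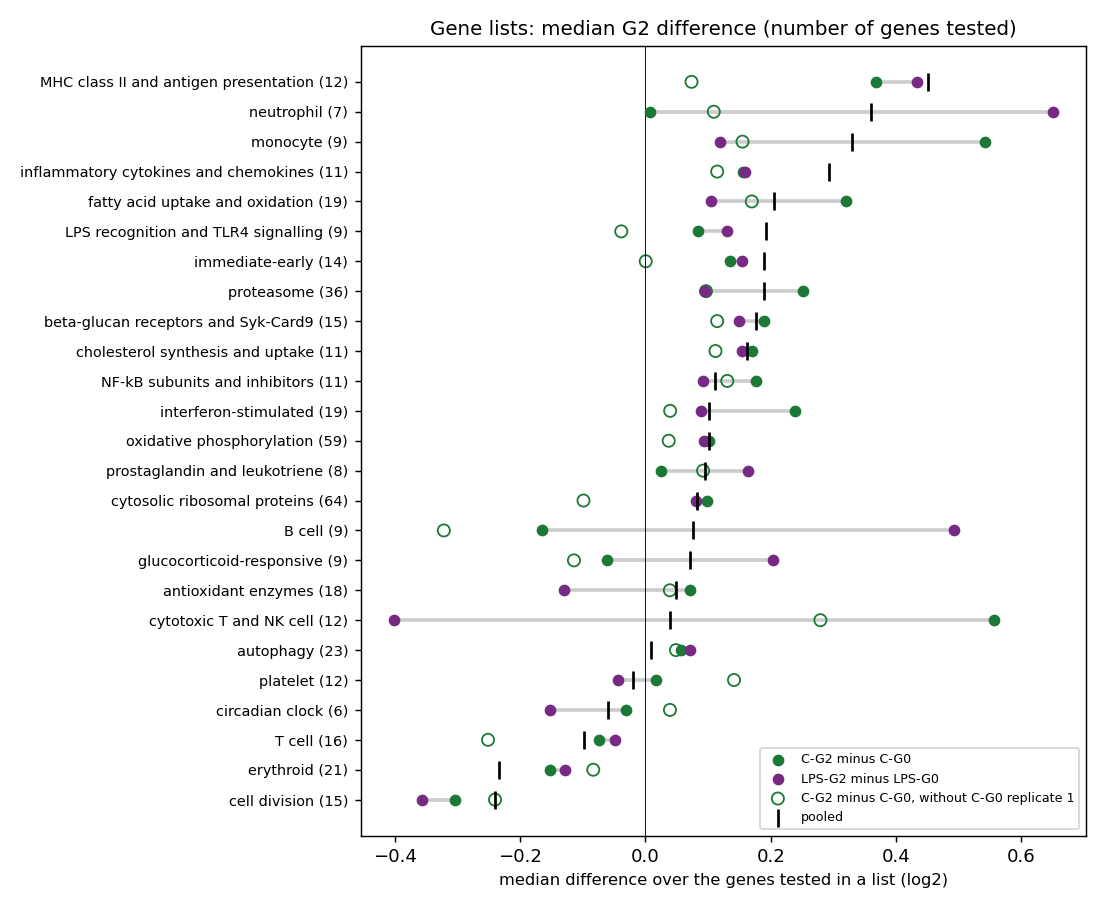
Median log2 difference between G2 and control diet (x axis) for each gene list (y axis), without LPS, with LPS and pooled, with an open circle for the median without C-G0 replicate 1. The pooled medians of the MHC class II and neutrophil lists are 0.45 and 0.36, and 0.29 and 0.38 without C-G0 replicate 1, and the cytotoxic list lies at 0.56 without and -0.40 with LPS.

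The leading differences were set beside those of G1 in a model of all 24 arrays. These probes had been chosen for their small pooled p of G2 against the control diet. That choice favours large G2 differences, and so large differences from G1. The 95% intervals below make no allowance for it, so they are not separate evidence of an effect particular to G2. The G1 and G2 effects share the control-diet arrays, so only the direct difference between the G2 and G1 diets was tested. No probe passed the adjusted p in limma (smallest 0.174), and 2236 of the 9880 tested had an unadjusted p under 0.05. The G1 and G2 diets were not balanced over the slides either. S100a11 was at 0.71 with G2 and 0.13 with G1, a difference of 0.58 (95% interval 0.34 to 0.83, limma adjusted p = 0.174). Fam208a was at -1.15 and -0.18, a difference of -0.97 (95% interval -1.46 to -0.48). Slc27a2 was at -1.37 and -1.44, with an interval of the difference from -0.99 to 1.13. The interval for Slc27a2 includes 0 and also a difference of 1.13, so it does not show that the diets act alike.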

How the data were processed

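Blood RNA of single rats was hybridised against a pooled reference on two-colour Agilent rat arrays. Per the file headers, Agilent Feature Extraction 10.10.1.1 subtracted background and normalised the dyes (Lowess); the labels name version 10.7.3.1. The deposited log10 ratio is Cy5 over Cy3, and the deposited intensity columns are processed signals. The log10 ratios were converted to log2 with the sign turned, giving rat over reference, and spots of one probe were averaged without outlier spots, which numbered 679 to 1110 per array. Arrays carry no read depth, and their number limits the precision.

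Probes were tested with limma 3.58.1 in R 4.3.3 (data.table, version 1.17.8), with a mean for each of the 4 groups and contrasts for the pooled diet effect, both diet effects and the interaction, and Benjamini-Hochberg adjustment over 9880 probes. Scripts were tested on simulated data. The named genes are the 12 probes with the smallest pooled p in each direction, the 5 per direction with the largest effects alike and the 5 per orientation with the smallest interaction p, plus up to 4 genes per list with an unadjusted p under 0.05. The members and lists were chosen with earlier results of these data known. Of the tested probes 6527 had a RefSeq symbol. Same-numbered arrays of different groups had a mean correlation of 0.11 in their deviations from the group means (-0.28 to 0.55 over 24 pairs). For different numbers it was -0.04 (72 pairs). Arrays on the same slide had a mean of 0.09 and those on different slides -0.04. Arrays that shared a number or a slide thus varied together slightly, but the numbers were not taken to pair the rats. The alternatives covered the slide, the model, filters, normalisation, the labels in conflict and each array in turn; the gene and list values and the correlation of the diet effects without single arrays, that correlation with slide or array weights, and the comparison with G1, were added after seeing the data. Some genes that meet these rules are not reported here.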

Additional observations from a re-analysis of the deposited data

Results flagged for a closer look

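Within the groups of 4 arrays, 1 array lay far from the other 3 for 23 of 432 gene or list values tested, and chance alone gives about 1 in 20. C-G0 replicate 1 accounted for 6 of these, LPS-G0 replicate 2 for 4 and C-G2 replicate 4 for 3. In C-G0 replicate 1 the log2 ratio was -0.90 for Myo1f, -1.87 for Fcnb and -0.78 for Il1rn, and the list means were -0.36 for LPS recognition and TLR4 signalling, -0.96 for MHC class II and -0.36 for oxidative phosphorylation. In C-G0 replicate 4 it was -2.27 for Hp and -0.28 for A_64_P087281, and in C-G0 replicate 2 -0.56 for Csf3r.

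In LPS-G0 replicate 2 the log2 ratio was -0.18 for Arpc2, -0.0731 for Pnkd, 0.0105 for ENSRNOT00000051268 and -0.0198 for Ube2c, and in LPS-G0 replicate 3 the glucocorticoid list mean was -0.22. In C-G2 replicate 4 it was -0.90 for Top2a, with list means of 0.0768 for NF-kB genes and 0.0727 for oxidative phosphorylation. In C-G2 replicate 1 it was -0.91 for Il7r, with a class II list mean of -0.25. In C-G2 replicate 2 it was -0.16 for Psmb3 and in C-G2 replicate 3 -0.0213 for A_64_P108854. In LPS-G2 replicate 2 it was -0.20 for Srebf2 and in LPS-G2 replicate 3 -0.55 for Nr4a1.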

How the results depend on the processing

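The pooled count of 0 adjusted calls was 1 in the model of all 24 arrays, the call being S100a11 (0.71, limma adjusted p = 0.0369). The 16 probes with an unadjusted p under 0.05 and a 2-fold difference became 10 with slide as a block, 102 without the filter on dim probes, 3 with a filter on all 16 arrays and 1 after normexp and loess. The 64 probes alike became 131 with array weights, 106 without the filter, 38 with the Cy3 channel alone and 39 without the arrays of conflicting labels. The 7 probes opposite became 151 with array weights, 20 in the unmoderated model, 21 without the filter, 4 with the filter on all 16 arrays and 3 with the Cy3 channel alone. In the fit with the replicate block, 97 probes were alike and 15 opposite, and 0 passed the adjusted p. With the Cy3 channel alone 496 probes were higher and 344 lower at an unadjusted p under 0.05.

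Leaving out each array in turn gave 0 to 2 adjusted pooled calls, 12 to 20 probes by 2-fold, 37 to 100 alike and 3 to 60 opposite, with 0 adjusted interaction calls throughout. The 2 calls, Fam92a1 (-0.75) and A_64_P087281 (-0.90, both limma adjusted p = 0.0467), came without C-G0 replicate 4, as did the 100 alike. The lowest count alike came without C-G2 replicate 4, and 42 were alike without LPS-G0 replicate 1. The 60 opposite came without C-G0 replicate 1, 25 without C-G2 replicate 2, 11 without LPS-G0 replicate 2, 3 without C-G2 replicate 1 and 4 without C-G0 replicate 3. The cause of these shifts was not tested. The genes named for their pooled difference or from a list kept its sign in all 1771 alternative values, and those named only for their interaction kept the sign of the interaction in all 207. They were chosen by these same differences, and the alternatives reuse most of the arrays, so the kept signs were largely fixed by the choice. The pooled differences of Gzmc (0.06) and ENSRNOT00000051268 (0.00), named for their interaction, were -0.03 and -0.10 without C-G0 replicate 1. The 4 arrays a group limit the precision, with a median standard error of 0.15 for the pooled effect and 0.30 for the interaction.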
